A study of Mus musculus with 4 samples.

Results

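Cytochrome P450 enzymes of families 2 and 3 were described in regenerating mouse liver. The members were chosen by name, as every probe set whose only annotated gene symbol began with Cyp2, a letter and a number, or with Cyp3a and a number. A single gene of subfamily 2d was left out. The rule found 46 of the 45101 probe sets on the array and 39 of the 18193 genes named on it. The genes belonged to subfamilies 2a (1 gene), 2b (4), 2c (11), 2d (7), 2j (5) and 3a (5), and to 2e, 2f, 2g, 2r, 2s and 2u with 1 gene each. A further 2 probe sets were annotated to several gene symbols at once, at least 1 of them of these families, and were not used.

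Nude mice of the BALB/c nu/nu strain, which lack mature T cells, had received carbon tetrachloride 23 times at 0.25 ml/kg. Human bone marrow mesenchymal stem cells (1000000 per mouse) were then given into the spleen. In the EGFP group the cells carried a green fluorescent protein as the control, and in the OGFRL1 group they carried OGFRL1, short for opioid growth factor receptor-like 1. Both groups underwent partial hepatectomy on day 21, and the regenerating liver was sampled 8 days later. Each group had 2 arrays, and the sources used here do not say whether these came from separate mice, so a p-value here covers array-to-array spread, part of which may be technical. The sources used here give neither age nor sex. The transplanted cells were human, and whether their RNA bound the mouse probes was not tested.

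P450 enzymes are haem proteins of the endoplasmic reticulum that insert an oxygen atom into drugs, steroids, fatty acids and bile acids, with electrons passed on by a reductase and by cytochrome b5. In liver most enzymes of families 2 and 3 are made by hepatocytes, many of them around the central vein. The xenobiotic receptors CAR (Nr1i3) and PXR (Nr1i2) induce several of them, and growth hormone sets apart male and female forms. Carbon tetrachloride itself is turned into its toxic radical mainly by Cyp2e1. Genes of a subfamily lie in tandem clusters and are close in sequence, so a probe set named for 1 of them can also bind transcripts of another.

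Most of the measured P450 genes gave a lower signal in OGFRL1 than in EGFP livers, and Cyp2c38 was the member that passed the threshold. Values are MAS5 signals on a linear scale, and differences are log2 fold changes of OGFRL1 minus EGFP, taken after adding a pseudocount of 3.51, with the standard error (SE) of the fit. Of the 39 genes, 30 passed the filter on low signal and were tested. The difference was below 0 in 23 and above 0 in 7, with a median of -0.39, against 44.4% below 0 and a median of 0.04 over all 11942 genes tested. At a limma adjusted p under 0.05, 1 member was lower and 0 were higher, where 0.151% and 0.36% of all genes were called in these directions. With every probe set fitted on its own, 0 of 36 member probe sets passed, and 0.084% of all probe sets were called lower and 0.252% higher. At an unadjusted p under 0.05, 11 members were lower (36.7% of those tested) and 1 was higher, beside 6.28% and 9.01% of all genes. Both OGFRL1 arrays lay below both EGFP arrays in 17 members (56.7%), where 20.5% of all genes did, and above them in 2 members (6.67%), where 27% did.

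**Figure D1:**
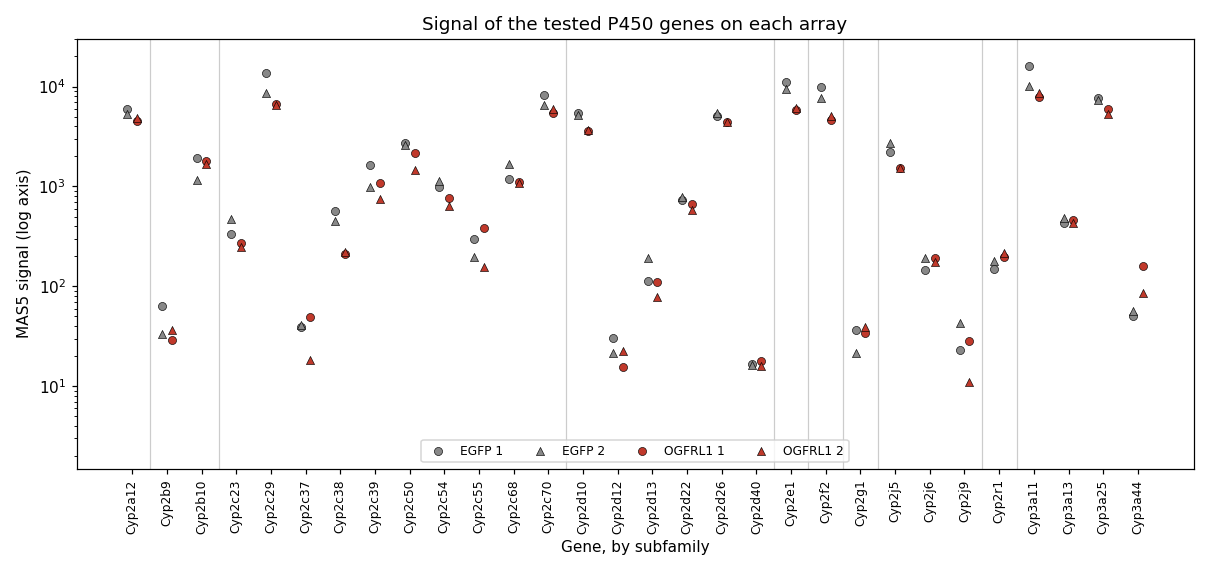
MAS5 signal (log axis) of the 30 tested P450 genes on each of the 4 arrays, ordered by subfamily; grey symbols are EGFP arrays, red symbols OGFRL1 arrays, circles replicate 1 and triangles replicate 2. The red symbols lie below both grey ones for 17 genes and above both for Cyp2r1 and Cyp3a44.

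Bright transcripts of all kinds, and the spike-in controls, were also lower on the OGFRL1 arrays. The bacterial and phage spike-in probe sets, whose RNA is normally put into each hybridisation at a fixed amount, had a mean log2 difference of -0.35 over 18 probe sets. Among all genes with a mean signal of at least 5000 the median difference was -0.43 (134 genes, 95.5% below 0), and the 7 members in that range had a median of -0.63. Between 1000 and 5000 the medians were -0.13 for all 978 genes and -0.50 for 7 members. Below 1000 they were 0.06 for 10830 genes and -0.32 for 16 members. When each array was scaled to its spike-ins, the P450 median was -0.045 and that of all genes 0.39, with 19 of 30 members below 0. This scaling shifts every gene by the same amount, so the distance between the medians is -0.43 by construction. After quantile normalization, which gives all arrays the same distribution of values, the P450 median was -0.28 and that of all genes 0.003. All differences below are therefore relative to a scaling that sets the trimmed mean of each array equal.

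Cell type markers were measured on the same arrays. The summed signal of 6 hepatocyte markers was 43869 to 64128 in EGFP and 33939 to 37702 in OGFRL1 livers. Both OGFRL1 arrays were below both EGFP arrays in 5 of the 6, beside 20.5% of all genes. Of these 5, all but Hnf4a were above 5000 on every array. Among all genes with a mean signal of at least 5000, 95.5% were below 0. Ass1 was higher but dim, at 33.4 and 22.1 in EGFP and at 55.5 and 39.7 in OGFRL1 arrays. Albumin (Alb) was at 16107 and 9313 in EGFP and at 7041 and 7930 in OGFRL1 arrays, a difference of -0.71 ± 0.26 that did not pass (limma adjusted p = 0.271). The 3 markers of proliferating cells summed to 425 to 633 in EGFP and to 1570 to 1912 in OGFRL1 arrays. All 3 were higher in both OGFRL1 arrays, beside 27% of all genes, and 1 of them, Rrm2, passed (1.87 ± 0.14, limma adjusted p = 0.0306). Of 6 stellate cell markers 4 were higher in both OGFRL1 arrays, beside 27% of all genes (median 0.64 over the 6), and none passed. These were Col1a1 (2.002 ± 0.285, limma adjusted p = 0.0503), Acta2 (1.15 ± 0.20), Pdgfrb (0.99 ± 0.20) and Des (0.29 ± 0.24), while Lrat and Dcn were at -0.08 and -0.004. The sums of the 6, mostly Dcn, were 1981 to 2803 and 2456 to 2972. The cholangiocyte markers (4 genes, all dim) summed to 108 in both EGFP arrays and to 102 to 109 in OGFRL1 arrays. Sums of 5 Kupffer cell and macrophage markers were 2494 to 4648 and 2734 to 4551, those of 5 endothelial markers 1372 to 1467 and 1238 to 1342, and the erythroid sum 259 to 385 and 107 to 133. The part of these markers in the P450 values was not tested. In tissue arrays fewer hepatocytes and less P450 RNA per hepatocyte cannot be told apart.

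**Figure D2:**
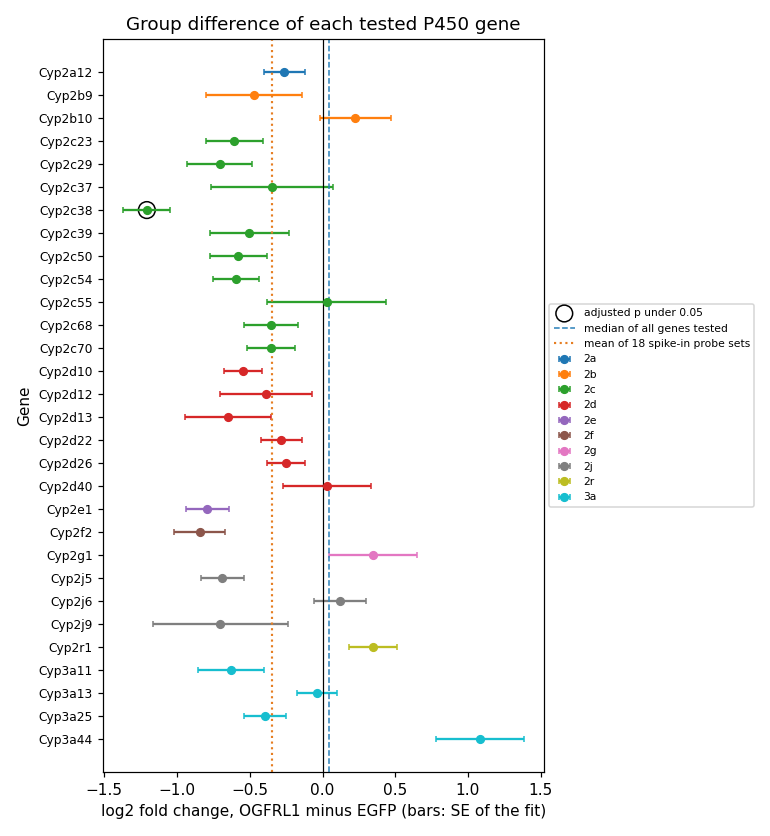
Log2 fold change (OGFRL1 minus EGFP) of each tested P450 gene with the SE of the fit as bars, coloured by subfamily; the dashed line is the median of all genes tested (0.04) and the dotted line the mean of the spike-in controls (-0.35). The circle marks Cyp2c38, and Cyp3a44 at 1.08 lies farthest to the right.

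Subfamily 2c, whose enzymes epoxidise arachidonic acid and hydroxylate drugs and retinoids, held the member that passed. Of its 10 tested genes 9 were below 0, with a median of -0.54 and a range from -1.21 to 0.03, and both OGFRL1 arrays were lower without overlap in 7, beside 20.5% of all genes. Cyp2c38, an arachidonic acid epoxygenase, had signals of 566 and 450 in EGFP arrays 1 and 2 and of 213 and 220 in OGFRL1 arrays 1 and 2. Both OGFRL1 values were about equal and lay far below either EGFP value. Cyp2c38 fell by 1.21 ± 0.16 on the log2 scale (limma adjusted p = 0.0483), from 508 ± 81.5 (SD, n = 2) to 217 ± 5.14. Its adjusted p ran from 0.00631 to 0.363 over 15 settings and passed in 7. It was 0.0505 in the fit of single probe sets. The call was lost after quantile normalization (-1.24, adjusted p = 0.0545) and without either OGFRL1 array (-1.18, adjusted p = 0.273 without OGFRL1 1, and -1.23, adjusted p = 0.363 without OGFRL1 2). It was also lost without a filter, with a stricter one, without an intensity trend, with the mean over probe sets and with a replicate block. With spike-in scaling the difference was -0.86 (adjusted p = 0.0107).

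Cyp2c29, an abundant CAR-induced enzyme of pericentral hepatocytes, stood at 13648 and 8689 in EGFP and at 6735 and 6603 in OGFRL1 arrays. Its groups did not overlap, but the EGFP arrays were farther apart (0.65 on the log2 scale) than EGFP 2 was from either OGFRL1 array. The difference of -0.71 ± 0.23 (limma adjusted p = 0.214) became -0.38 without EGFP 1 and -0.21 after quantile normalization. The bases before the RefSeq start of Cyp2c38 and of Cyp2c29, which lies in the same cluster, are shown because this pair gave the lowest differences of the subfamily. Both run 5′ to 3′ in the direction of the gene (RefSeq, GRCm38.p6), and capitals mark matches to the motifs listed further down.

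Cyp2c38 (chr19:39463076-39463325, minus strand): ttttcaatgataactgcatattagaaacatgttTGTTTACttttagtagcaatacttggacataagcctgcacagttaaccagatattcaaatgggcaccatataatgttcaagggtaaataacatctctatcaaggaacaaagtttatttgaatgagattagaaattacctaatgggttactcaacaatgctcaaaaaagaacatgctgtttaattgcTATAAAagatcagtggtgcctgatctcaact
Cyp2c29 (chr19:39286835-39287084, plus strand): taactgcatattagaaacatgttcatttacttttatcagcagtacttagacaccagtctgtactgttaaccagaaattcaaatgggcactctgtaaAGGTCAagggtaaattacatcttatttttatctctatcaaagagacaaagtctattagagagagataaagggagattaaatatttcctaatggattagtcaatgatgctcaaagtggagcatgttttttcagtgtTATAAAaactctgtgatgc

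Aligned end to end, 187 of the 250 bases were identical (74.8%). Both hold TATAAA, 31 bases before the start in Cyp2c38 and 19 before it in Cyp2c29. TGTTTAC was found in Cyp2c38 and AGGTCA in Cyp2c29 alone of this pair. Upstream identity was higher for Cyp2c38 with Cyp2c39 (80.4%) and highest for Cyp2c37 with Cyp2c50 (86.0%), over the first start listed for each gene. For pairs of members from different subfamilies the same alignment gave 46.0% to 57.6% (median 52.4%). Within subfamilies the median was 58.0%.

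Cyp2c39, a retinoic acid hydroxylase, had 1636 and 995 in EGFP and 1070 and 757 in OGFRL1 arrays, so its groups overlapped (-0.50 ± 0.27). The difference was -0.14 without EGFP 1, -0.86 without EGFP 2 and -0.25 without OGFRL1 2. Cyp2c54 had 983 and 1140 against 773 and 634, with no overlap and a difference of -0.59 ± 0.16 (limma adjusted p = 0.159). Cyp2c50 was at 2705 and 2599 against 2140 and 1468 (-0.58 ± 0.20), and -0.31 without OGFRL1 2. These are pericentral enzymes, and neither passed the threshold. Cyp2c23, an epoxygenase known from kidney, was at 332 and 471 against 269 and 248 (-0.61 ± 0.19), and at -0.36 without EGFP 2. Cyp2c70, which makes the muricholic acids of mouse bile, was at 8191 and 6503 against 5487 and 5943 (-0.35 ± 0.16), at -0.19 without EGFP 1 and at 0.005 after quantile normalization. Cyp2c68 was at 1180 and 1661 against 1101 and 1088 (-0.35 ± 0.18), and at -0.60 without EGFP 1, -0.11 without EGFP 2 and -0.007 with spike-in scaling. In each of these 3 genes the groups did not overlap.

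The other 2c genes did not separate the groups. Cyp2c37 had 39.4 and 40.9 in EGFP and 49.8 and 18.5 in OGFRL1 arrays, and its difference of -0.35 ± 0.42 was -0.99 without OGFRL1 1 and 0.29 without OGFRL1 2. Cyp2c55, an enzyme best known from colon, had 296 and 195 against 380 and 158 (0.03 ± 0.41), and went from -0.60 to 0.65 with a single OGFRL1 array left out. Cyp2c65 was under the filter, with no signal above 7.79. In chromosome order Cyp2c55 and Cyp2c65 came first, and the other 9 genes, from Cyp2c29 to Cyp2c23, all had differences below 0.

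**Figure D3:**
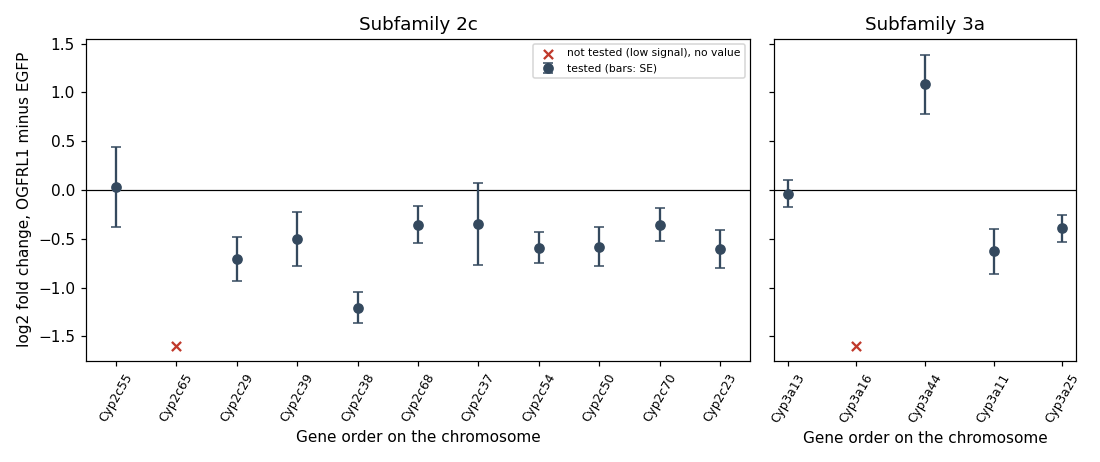
Log2 fold change (OGFRL1 minus EGFP, bars are SE) of the members of subfamilies 2c and 3a in the order of their starts on the chromosome, with genes outside the member list left out; crosses at the bottom mark genes under the filter, which have no value. In 3a the next-door points Cyp3a44 and Cyp3a11 lie at 1.08 and -0.63.

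Subfamily 3a, the main drug and steroid hydroxylases of liver, held the largest positive difference among the members. Of 4 tested genes 3 were below 0, with a median of -0.22. Cyp3a11, the PXR-induced counterpart of human CYP3A4, was at 15922 and 10127 in EGFP and at 7851 and 8584 in OGFRL1 arrays. The OGFRL1 arrays were below both EGFP arrays, of which EGFP 1 was by far the higher. Its difference of -0.63 ± 0.23 (limma adjusted p = 0.269) was -0.30 without EGFP 1, -0.96 without EGFP 2 and -0.08 after quantile normalization. Cyp3a25, a fetal and adult liver form, was at 7638 and 7258 against 6009 and 5336 (-0.39 ± 0.14), with no overlap, and at -0.02 after quantile normalization. Cyp3a13, found in liver and gut, was at 435 and 482 against 459 and 432, a difference of -0.04 ± 0.14.

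Cyp3a44, a form known from female liver, went the other way. It was at 50.5 and 56.9 in EGFP and at 161 and 85.7 in OGFRL1 arrays, so both OGFRL1 values were above both EGFP values but far apart from each other. The difference was 1.08 ± 0.30 and did not pass (limma adjusted p = 0.171). It was 0.64 without OGFRL1 1, 1.52 without OGFRL1 2 and 1.43 with spike-in scaling, where it passed (adjusted p = 2.04e-05, the lowest of 15 settings and the single one under the threshold) together with Cyp2c38 and Cyp2r1 among the members. Scaling to the spike-ins called 1609 genes in all, 13.5% of those tested. Cyp3a16, a fetal and neonatal form, was under the filter (4.35 and 3.92 against 6.24 and 4.42).

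The upstream bases of Cyp3a11 and Cyp3a44 are shown because these genes follow each other among the measured 3a genes and their differences had opposite signs.

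Cyp3a11 (chr5:145879855-145880104, minus strand): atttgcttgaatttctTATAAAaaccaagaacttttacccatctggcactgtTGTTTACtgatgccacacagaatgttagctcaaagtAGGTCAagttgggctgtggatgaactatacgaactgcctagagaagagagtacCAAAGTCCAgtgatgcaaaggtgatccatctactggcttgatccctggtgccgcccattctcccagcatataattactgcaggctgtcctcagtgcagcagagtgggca
Cyp3a44 (chr5:145805875-145806124, minus strand): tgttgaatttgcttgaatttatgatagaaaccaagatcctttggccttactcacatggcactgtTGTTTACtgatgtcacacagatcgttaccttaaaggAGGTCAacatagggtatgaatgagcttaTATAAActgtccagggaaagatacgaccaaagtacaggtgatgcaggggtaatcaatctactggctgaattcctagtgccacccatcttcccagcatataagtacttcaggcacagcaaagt

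The upstream stretches were identical at 190 of 250 bases (76.0%). TGTTTAC and AGGTCA occurred in both at like places, 198 and 162 bases before the start in Cyp3a11 and 186 and 150 before it in Cyp3a44. CAAAGTCCA was found in Cyp3a11 at 109 bases before the start and had no match in Cyp3a44. The difference between the 2 genes was not tested, and a match of letters is not evidence of binding.

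Cyp2e1 and Cyp2f2 gave the members' next lowest adjusted p after Cyp2c38. Cyp2e1, the enzyme that oxidises ethanol, paracetamol and carbon tetrachloride in pericentral hepatocytes, was at 11181 and 9540 in EGFP and at 5802 and 6137 in OGFRL1 arrays. OGFRL1 signals were thus 0.576 times the EGFP mean, with tight pairs on both sides. The difference was -0.79 ± 0.15 (limma adjusted p = 0.0824). It passed without EGFP 1 (-0.68, adjusted p = 0.0128) and without EGFP 2 (-0.91, adjusted p = 0.00721), and was -0.38 after quantile normalization, with adjusted p up to 0.668 over the settings. Cyp2f2, which oxidises naphthalene and marks periportal hepatocytes, was at 9942 and 7644 against 4653 and 5055, or 0.552 times the EGFP mean. Its difference of -0.85 ± 0.17 (limma adjusted p = 0.0963) was -0.50 after quantile normalization. A pericentral and a periportal enzyme were thus lower in both OGFRL1 arrays. Both had a mean signal above 5000, where 95.5% of all genes were below 0 (median -0.43).

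Subfamily 2d, whose human relative metabolises many basic drugs, had 5 of 6 tested genes below 0 and a median of -0.34, which was 0.01 with spike-in scaling. Cyp2d10 was at 5459 and 5168 in EGFP and at 3561 and 3701 in OGFRL1 arrays. Each pair was close and the pairs lay apart, with a difference of -0.55 ± 0.13 (limma adjusted p = 0.129), -0.34 after quantile normalization. Cyp2d26 was at 5051 and 5474 against 4401 and 4435 (-0.25 ± 0.13), and at -0.03 after quantile normalization. Cyp2d22, regarded as the counterpart of human CYP2D6, was at 725 and 793 against 664 and 582 (-0.28 ± 0.14). With spike-in scaling Cyp2d22 and Cyp2d26 were at 0.06 and 0.10. Cyp2d13, a transcribed pseudogene in RefSeq, was at 113 and 194 against 111 and 78.3 (-0.65 ± 0.29), at -1.03 without EGFP 1, -0.27 without EGFP 2 and -0.41 without OGFRL1 2. Cyp2d12 (-0.39 ± 0.32) and Cyp2d40 (0.03 ± 0.30) overlapped between groups at signals under 31, and Cyp2d34 was under the filter.

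Subfamily 2j, whose enzymes epoxidise arachidonic acid in liver, kidney and heart, had 2 of 3 tested genes below 0. Cyp2j5, its liver and kidney form, was at 2221 and 2696 in EGFP and at 1520 and 1514 in OGFRL1 arrays. The OGFRL1 arrays were nearly equal, and the difference was -0.69 ± 0.15 (limma adjusted p = 0.103), -0.59 after quantile normalization. It passed without EGFP 1 (-0.83, adjusted p = 0.00752) and without EGFP 2 (-0.55, adjusted p = 0.0379), and the adjusted p reached 0.711 in another setting. Cyp2j9, a form described in brain, was at 23.1 and 42.8 against 28.3 and 11.1, with groups that overlapped (-0.70 ± 0.46). It ranged from -1.26 without OGFRL1 1 to -0.14 without OGFRL1 2. Cyp2j6 was at 147 and 192 against 193 and 174 (0.12 ± 0.18), with -0.07 without EGFP 1 and 0.31 without EGFP 2, and Cyp2j11 and Cyp2j13 were under the filter.

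Subfamilies 2a and 2b had 1 and 2 tested genes, of which Cyp2a12 and Cyp2b9 were below 0 and Cyp2b10 above. Cyp2a12, a steroid and bile acid hydroxylase, was at 5943 and 5297 in EGFP and at 4526 and 4828 in OGFRL1 arrays. The groups did not overlap, but the difference was small (-0.26 ± 0.14, limma adjusted p = 0.441), at -0.02 after quantile normalization and 0.08 with spike-in scaling. Cyp2b10, the classic target of phenobarbital and CAR, was at 1932 and 1149 in EGFP and at 1808 and 1675 in OGFRL1 arrays. The OGFRL1 values lay between the EGFP values, so the difference of 0.22 ± 0.24 was 0.60 without EGFP 1, where it passed (adjusted p = 0.0339, in other settings up to 0.961), and -0.15 without EGFP 2. Cyp2b9, a form of female liver, was at 63.2 and 33.5 against 28.7 and 36.4 (-0.47 ± 0.33), at -0.05 without EGFP 1 and -0.89 without EGFP 2. Cyp2b13, also a female form, was under the filter (2.08 and 15.5 against 9.71 and 13.0), as was Cyp2b19.

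Cyp2r1 and Cyp2g1, single genes of their subfamilies, had differences above 0. Cyp2r1, the microsomal 25-hydroxylase of vitamin D, was at 148 and 179 in EGFP and at 198 and 217 in OGFRL1 arrays. Both OGFRL1 arrays were above both EGFP arrays, with a difference of 0.35 ± 0.16 (limma adjusted p = 0.387) that was 0.21 without EGFP 1. Cyp2g1, an enzyme of the olfactory mucosa, was at 36.2 and 21.3 against 34.1 and 38.9 (0.35 ± 0.30), at 0.69 without EGFP 1 and 0.007 without EGFP 2. Cyp2s1 and Cyp2u1 were under the filter. The 9 genes under the filter had 10 probe sets with signals from 0.151 to 24.0, too dim to rank.

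Genes with several probe sets gave a check on the probes. Of the 39 genes 6 had more than 1 probe set, 13 in all. The 3 probe sets of Cyp2b10 were at 0.22, 0.32 and 0.32, and on each EGFP 1 was above EGFP 2 by 0.67 to 1.00 on the log2 scale. The 2 probe sets of Cyp2j5 were at -0.69 and -0.79, those of Cyp2d13 at -0.65 and -0.69 and those of Cyp2d22 at -0.28 and -0.26. Cyp2j6 was the exception, with 0.12 on one probe set and -0.26 on the other, where 127 and 126 in EGFP stood against 102 and 107 in OGFRL1 arrays. Both probe sets of Cyp2u1 were under the filter. For 6 of the 46 probe sets the identifier ends in s_at or a_at, the platform's marks for probes shared by several transcripts. These were s_at for Cyp2c23, Cyp2c65 and 2 sets of Cyp2b10, and a_at for Cyp2f2 and 1 set of Cyp2d13. How much signal each probe set took from paralogs was not tested.

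The EGFP arrays lay farther apart than the OGFRL1 arrays. The median absolute gap between the EGFP arrays was 0.33 on the log2 scale over the 30 tested members, against 0.13 between the OGFRL1 arrays, and over all genes the gaps were 0.25 and 0.17. In 13 of the 30 members the EGFP arrays were farther apart than the group means, which held for 54.8% of all genes. EGFP 1 was above EGFP 2 in 17 members. Leaving out EGFP 1 called 10 members (33.3%, with 5.18% of all genes): Cyp2b10 as higher, and Cyp2c23, Cyp2c38, Cyp2c54, Cyp2c68, Cyp2d10, Cyp2d13, Cyp2e1, Cyp2f2 and Cyp2j5 as lower. Leaving out EGFP 2 called 9 (30.0%, with 7.17% of all genes), all lower: Cyp2c29, Cyp2c38, Cyp2c39, Cyp2c70, Cyp2d10, Cyp2e1, Cyp2f2, Cyp2j5 and Cyp3a11. Without an OGFRL1 array almost no gene of any kind was called. The median of the members was -0.50 without OGFRL1 1 and -0.31 without OGFRL1 2, beside 0.06 and 0.03 over all genes. In these fits the lone array of a group is assumed to vary like the others.

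The lists by expression pattern cut across the subfamilies. All 7 tested pericentral members were below 0 (median -0.59), and both OGFRL1 arrays were lower in 6, Cyp2c37 being the exception, beside 20.5% of all genes. Of these 7 genes 4 had a mean signal above 5000, where 95.5% of all genes were below 0. Of 7 tested members induced by CAR or PXR, 5 were below 0 and 2 above (median -0.35), among them Cyp2b10 and Cyp3a11 with opposite signs. Of the female-predominant members 3 were tested, with Cyp2b9 and Cyp2c39 below 0 and Cyp3a44 above. Of 5 tested members known from other tissues or for endogenous substrates, 3 were above 0 and 2 below (median 0.12), where 44.4% of all genes were below 0. Both OGFRL1 arrays were higher in 1 of them, Cyp2r1, and lower in 1, Cyp2f2, beside 27% and 20.5% of all genes. None of these lists had a member past the threshold.

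Genes that supply or regulate these enzymes were also mostly below 0. All 11 measured genes listed for electron supply and haem synthesis were below 0 (median -0.27), and 0 passed. The list also holds Hmox1, which breaks haem down (-0.19 ± 0.42). Both OGFRL1 arrays were below both EGFP arrays in 7 of the 11, beside 20.5% of all genes. Cyb5b, a cytochrome b5, was at 1537 and 1698 against 1061 and 925 (-0.70 ± 0.14, limma adjusted p = 0.0936). Cyb5a, another cytochrome b5, had a smaller difference of -0.39 ± 0.18 (limma adjusted p = 0.361). Alas1, which starts haem synthesis, had -0.475 ± 0.164, Uros, a later enzyme of that path, -0.50 ± 0.18, and Cyb5r3, a reductase of cytochrome b5, -0.45 ± 0.14. Of 18 regulators 14 were below 0 (median -0.18) and 0 passed. Both OGFRL1 arrays lay below both EGFP arrays in 8 regulators and above them in 1, beside 20.5% and 27% of all genes. PXR (Nr1i2) was at 309 and 302 against 386 and 267 (0.07 ± 0.20) and CAR (Nr1i3) at 666 and 490 against 572 and 484 (-0.12 ± 0.19), so the groups overlapped in both. The hepatocyte factors Cebpa (-0.70 ± 0.22) and Hnf4a (-0.545 ± 0.151) and the bile acid receptor Nr1h4 (-0.365 ± 0.199) were lower in both OGFRL1 arrays, and Ahr (0.35 ± 0.17) was higher.

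Other P450 families were set beside these members from a fixed list. Of 20 tested genes 16 were below 0 (median -0.355), and 1 passed: Cyp4a12a, which hydroxylates fatty acids and is a male form, with 947 and 1651 against 57.6 and 105 (-3.95 ± 0.35, limma adjusted p = 0.0364). Settings that lost its call included those without a filter and without an intensity trend, where 0 genes were called. It was also lost without OGFRL1 1 (-3.53). Cyp4f13 had -0.83 ± 0.15. Cyp39a1, an oxysterol hydroxylase, was at 206 and 230 against 413 and 449 (0.975 ± 0.144, adjusted p = 0.0539), and Cyp1a1, which Ahr induces, at 19.7 or less against 77.0 and 57.3 (1.65 ± 0.25, adjusted p = 0.0552). Cyp4a12a has close paralogs, so its gene assignment is uncertain.

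Upstream sequence was searched on both strands for 7 short motifs in windows of 250 bases before and 50 after the start. The RefSeq table held a window for 24 of the 30 tested members. TATAAA, the letters of the TATA box, was in 12 of them and in 13.6% of all 32851 windows, counted at any place. It lay 234, 128, 122 and 91 bases before the start in Cyp3a11, Cyp2j5, Cyp3a44 and Cyp2d40, and 19 to 39 before it in the others. AGGTCA, the core of many nuclear receptor sites, was in 10 (41.7%, against 16.3%). TGTTTAC, known for FOXA factors, was in 5 (20.8%, against 3.65%), and CAAAGTCCA, known for HNF4 alpha, in Cyp3a11, Cyp2c68 and Cyp2c70 (12.5%, against 0.475%). TTGCNNAA, known for C/EBP, was in 5 (20.8%, against 10.8%), GTTAAT, known from HNF1 sites, in 2 (8.33%, against 7.10%) and TTCNNNGAA, known for STAT5, in 0 (against 8.30%). Of 37 matches before the first listed start of each member, 0 overlapped another. Paralogs share upstream sequence by descent, so these members are not independent of each other, and a missing match says only that the letters are not in the window.

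**Figure D4:**
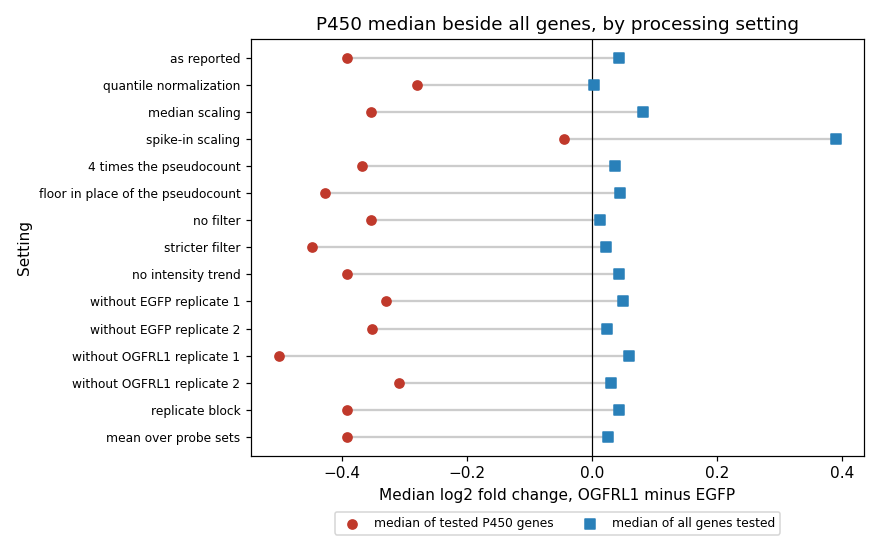
Median log2 fold change (OGFRL1 minus EGFP) of the tested P450 genes (red circles) and of all genes tested (blue squares) under each processing setting, joined by a grey line. Median scaling, spike-in scaling, no intensity trend and the replicate block leave the distance between the symbols at its reported -0.43 by construction, and spike-in scaling moves both to the right, to -0.045 and 0.39.

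Of the 30 tested members 24 had a value in all 15 settings, and the other 6, Cyp2b9, Cyp2c37, Cyp2d12, Cyp2d40, Cyp2g1 and Cyp2j9, were under the stricter filter and had 14. In the settings that gave a value, 17 members stayed below 0, 3 stayed above it (Cyp2g1, Cyp2r1 and Cyp3a44) and 10 changed sign at least once. Among the settings that can move it, the P450 median minus that of all genes was nearest to 0 after quantile normalization (-0.28) and farthest without OGFRL1 1 (-0.56).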

How the data were processed

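RNA of regenerating liver was measured on 4 single-colour Affymetrix arrays, from 100 ng of total RNA each per the labels' protocols. The deposited values are signal intensities on a linear scale, made with MAS5 per the submitters' processing notes; its version, the detection calls and the scanner are not given in the sources used here. Median signals were 11.6 to 12.5. Gene symbols came from the platform annotation (34945 probe sets with 1 symbol, 932 with several, 9160 with none, 64 controls).

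Signals were log2-transformed after adding 3.51, the 25th percentile of all values. Each gene was represented by its brightest probe set and kept where its mean signal reached 11.6, the median of the probe sets. The test was that of limma 3.58.1 under R 4.3.3 (lmFit, eBayes with an intensity trend, 2-sided, Benjamini-Hochberg, threshold 0.05; 2 residual and 4.48 prior degrees of freedom), and single probe sets likewise. The number of arrays limits the precision. Members, lists and the naming rule were chosen with earlier results of these data known, so lists carry no test. Named with full values were called members, in each subfamily the brightest gene and the 3 with the largest absolute moderated t, every female-predominant gene, and up to 4 genes of the other lists; other members were named after their values were seen. Of the genes the rule always names, Por is not analysed here. Sequences and gene order came from RefSeq (GRCm38.p6) and upstream identity from a global alignment in Biopython 1.88. The fit was tested on simulated data.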

Additional observations from a re-analysis of the deposited data

How the results depend on the processing

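The number of genes called went from 61 to 4 after quantile normalization, 1609 with spike-in scaling, 94 with 4 times the pseudocount, 2 under a stricter filter, 13 with the mean over probe sets, and 0 without a filter or an intensity trend in limma (2179 and 1654 at an unadjusted p under 0.05). For single probe sets the 68 calls became 12, 2117, 116, 0 under the stricter filter, and 0 without a filter or a trend (1851, 3673 and 2537 at an unadjusted p under 0.05). Leaving out 1 array gave 0 to 856 genes and 0 to 1105 probe sets. The count of P450 members called was 3 with spike-in scaling, 0 to 10 with an array left out, and 0 after quantile normalization, without a filter or a trend, under the stricter filter, with the replicate block and with the mean over probe sets. With spike-in scaling the medians were -0.045 for all tested members, -0.19 for 2c, 0.011 for 2d, -0.34 for 2j and 0.13 for 3a. The 3a median was -0.038 after quantile normalization and without a filter, that of 2j was -0.28 under the stricter filter and -0.83 to -0.14 with an array left out, and that of 2b, from 2 genes, was -0.52 to 0.28 with an array left out. Signs reversed for Cyp2a12 (0.084), Cyp2d22 (0.062), Cyp2d26 (0.10) and Nr1i3 (0.23) with spike-in scaling, for Cyp2b10 (-0.15 to 0.60), Cyp2j6 (-0.068 to 0.31) and Nr1i2 (-0.19 to 0.33) with an array left out, for Cyp2j6 (-0.071) with the mean over probe sets, for Nr1i3 without EGFP 1 (0.10) and without OGFRL1 2 (0.002), and for Ahr (-0.0056) with the mean over probe sets; the cause was not tested. Cyp2c37 (0.29 without OGFRL1 2), Cyp2c70 (0.005 after quantile normalization) and 3 members within 0.05 of 0, Cyp2c55, Cyp2d40 and Cyp3a13, also turned sign. Of 414 values of the 30 tested members under 14 other settings, 371 kept their direction and call, 19 gained a call, 8 lost one (all of Cyp2c38) and 16 reversed.

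The groups share replicate numbers, but no label ties a number to 1 mouse or day. With the replicate number as a block 59 genes and 60 probe sets were called, and Cyp2c38 had an adjusted p of 0.0555. Deviations of EGFP 1 and OGFRL1 1 correlated at -0.28 across genes, and a crossed pairing, chosen after seeing the data, called 934 genes and 12 members.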
